A study of Caenorhabditis elegans with 57 samples.

Results

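This account follows 4 genes of *C. elegans* that were silent or nearly so in *him-8* male germlines and on in *mes-3* mutant male germlines: *oac-36* (F56H6.12), *pes-7* (F09C3.1), *pes-10* (Y46G5A.27) and *folt-1* (C06H2.4). They were chosen from that contrast, out of 45461 genes in the RNA table, and all 4 were found in the RNA and the CUT&RUN tables. The question was whether they were also on in offspring and F2 germlines, from which parental allele, and with which histone marks. *oac-36* and *pes-7* lie on chromosome I with 384 protein-coding genes between them, *pes-10* lies on II and *folt-1* on V, by RefSeq assembly WBcel235, which was used for gene names and gene order only.

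MES-3, with MES-2 and MES-6, forms the worm's Polycomb repressive complex PRC2, which places H3K27me3, a mark of repressed chromatin. H3K36me3 is the mark left over genes that are transcribed, and in the germline it is placed by MES-4 and MET-1. In the worm germline H3K27me3 covers the X chromosome and many genes used in somatic tissues, and sperm carry marked histones into the embryo. *oac-36* encodes a predicted membrane O-acyltransferase, of a large worm family with few characterised members. *folt-1* encodes a folate transporter of the reduced folate carrier family, used for folate uptake in the intestine. *pes-7* encodes an IQGAP-like protein, a scaffold of the actin cytoskeleton. *pes-10* is among the earliest genes switched on in the somatic cells of the embryo, and both *pes* genes take their name from screens for patterned expression.

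Mothers of the first cross were *fem-2(b245ts)* worms of the Hawaiian strain CB4856, which are female at the restrictive temperature. For every library the records list growth at 20 °C, with 25 °C for females. Fathers of the first cross were of the Bristol strain N2 and carried *him-8(e1489)*. Fathers homozygous for *mes-3(bn35)* gave the offspring called M+P-, whose sperm chromosomes lacked H3K27me3 per the labels, and fathers with *mes-3(bn35)* over the balancer hT2-GFP gave M+P+. Offspring of both kinds were heterozygous for *mes-3(bn35)*, *fem-2(b245ts)* and *him-8(e1489)*, so the control group carried the mutations too. Hermaphrodite germlines (2 RNA libraries a group), male germlines (4 a group) and newly hatched L1 larvae (3 a group) were taken. The second cross used fathers homozygous for *mes-3(bn199)* or with it over hT2-GFP, linked to a tagged *glh-1* (glh-1::GFP::3xflag) and with *fem-2(b245ts)*, and mothers of the same genotype as before. Its F1 hermaphrodites were heterozygous for *mes-3(bn199)* and homozygous for *fem-2(b245ts)* as labelled (3 RNA libraries a group). F2 hermaphrodites (GM+GP-, 3 RNA libraries) had the same labelled genotype and descended from an M+P- mother by selfing, with no father listed. The male germlines used to pick the genes came from *him-8(e1489)* males and from *mes-3(bn35); him-8(e1489)* males of heterozygous mothers (3 libraries each). Adults were taken on day 1 and cut at the bend of the gonad, with 30 to 50 distal germlines pooled per library, and L1 libraries pooled approximately 100 larvae. CUT&RUN, which releases antibody-bound DNA with a nuclease, was done for H3K27me3 and H3K36me3 with 2 libraries per group and mark in hermaphrodite germlines of both crosses, the F2 and *him-8* males.

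RNA libraries held 5706650 to 19191934 counts, H3K27me3 libraries 2797547 to 25714782 and H3K36me3 libraries 1701400 to 41980395, the lowest being *him-8* replicate 1. Several libraries stood apart before any comparison. F1 M+P- replicate 3 was at 0 for all 20 of the 20 well-counted genes nearest to *folt-1* and for 0 of 20 around each of the other members, so its *folt-1* value is a gap in that library. Around the other 3 members its well-counted genes ran above the other F1 libraries by a median log2 of 0.58 to 0.60, and its CPM of those members and the F1 M+P- means hold that shift. Male M+P+ replicate 3 had a summed level of 8 muscle markers of 2673 CPM (CPM being a gene's counts per 1000000 counts of the library), against 21.3 to 28.3 in the other 3 libraries of its group. H3K36me3 hermaphrodite M+P+ replicate 2 had the most counts, 41980395, yet 22807 genes detected against 28489 in replicate 1. Germ cell markers summed to 13280 to 14300 CPM in the first-cross hermaphrodite germlines and to 232 to 307 CPM in the whole L1 larvae. *mes-3* RNA itself ranged from 20.4 to 41.9 CPM in the mutant males and from 38.8 to 46.5 CPM in *him-8* males, and as the labels do not give the allele's lesion, this level does not check them. The RNA is from bulk tissue, in which more cells of a type and more RNA per cell cannot be told apart.

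The values that chose the genes were these, given as a description with no test. *pes-7* was at 49.5, 27.7 and 29.3 CPM in the mutant males and at 0, 0 and 0.304 CPM in *him-8* males. *oac-36* was at 30.7, 20.5 and 33.3 CPM against 0.282, 0 and 0 CPM. Of 34492 genes with a mean under 0.2 CPM in *him-8* males, these were the pair with the highest mean in the mutants, and the next gene, K09F6.6, had a mean of 13.3 CPM. *folt-1* was at 6.0, 6.48 and 2.99 CPM in the mutants and *pes-10* at 4.57, 6.31 and 6.69 CPM, and both had 0 counts in all 3 *him-8* libraries. A count of 0 allows up to 0.423 to 0.456 CPM at the depth of those libraries, taking 3 counts as the limit, for counting error only. In the same ranking *pes-10* was number 15 and *folt-1* number 20, and the genes just below each, *cmk-1* and *col-109*, had means of 5.65 and 4.96 CPM. The summed muscle markers ranged from 62 to 223 CPM in the mutant males and from 31.8 to 82.5 CPM in *him-8* males, and somatic gonad markers from 17.8 to 20.7 CPM against 1.13 to 4.23 CPM; their part in the members' levels was not tested.

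**Figure D1:**
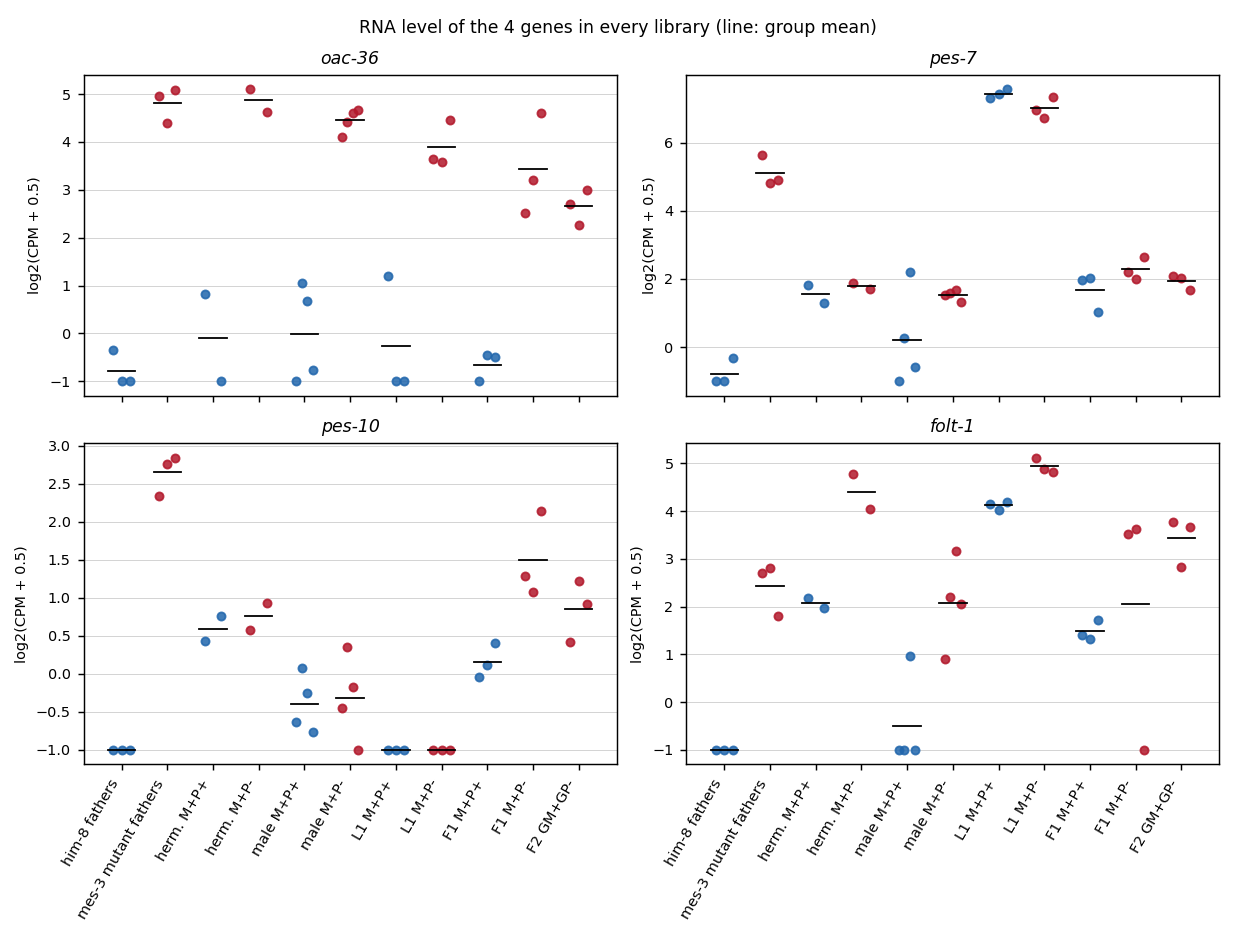
RNA level of each gene, as log2(CPM + 0.5), in every RNA library, with a line at the group mean; red marks mutant males and descendants of mutant fathers, blue the others, and herm. stands for first-cross hermaphrodite germlines. All red points of *oac-36* lie above its blue points, whereas *pes-7* is highest in the L1 larvae of both groups, at 104.5 to 189 CPM.

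*oac-36* was on in every M+P- library of both crosses and in every F2 library. First-cross hermaphrodite germlines had 33.9 and 24.3 CPM of *oac-36* RNA in M+P- and 1.27 and 0 CPM in M+P+. The M+P- libraries lay within or close to the range of the mutant males, and the groups did not overlap. The fitted difference was log2 5.58 ± 0.52, with an SE derived from the F statistic as throughout. It passed edgeR's quasi-likelihood test with Benjamini-Hochberg adjustment over all genes (adjusted p = 3.19e-05, n = 2 a group). All 15 of the M+P+ counts came from replicate 1, so *oac-36* reached the test through its M+P- libraries, as in the other comparisons by history. Leaving out 1 library at a time moved the log2 value from 4.52 (without M+P+ replicate 2) to 11.45, so no fold is given. DESeq2 gave log2 5.55 with an adjusted p of 0.154, in a range of 4.94e-75 to 0.154 over 9 alternatives, and the authors' deposited table lists log2 5.57 with 1.68e-07.

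Male germlines had 16.7, 20.8, 24.0 and 25.1 CPM of *oac-36* in M+P- and 0, 1.57, 1.1 and 0.0859 CPM in M+P+. The lowest M+P- male library was thus above every M+P+ one. The difference of log2 4.94 ± 1.03 did not pass edgeR's quasi-likelihood test (adjusted p = 0.141, 9189 genes tested). DESeq2 gave log2 4.96 with an adjusted p of 3.95e-06, in a range of 3.95e-06 to 0.516 over 13 alternatives, and the authors' deposited table lists log2 4.95 with 4.83e-11. L1 larvae had 12, 11.4 and 21.4 CPM in M+P- and 1.81, 0 and 0 CPM in M+P+. The larval groups did not overlap either, and the difference of log2 4.53 ± 1.13 did not pass the edgeR test (adjusted p = 0.385), with M+P+ replicate 1 holding all of the M+P+ counts. Without that library the adjusted p was 0.0375, in a range of 1.03e-14 to 1 over 11 alternatives, and no fold is given against libraries at 0.

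F1 germlines of the second cross had 5.2, 8.72 and 24.0 CPM of *oac-36* in M+P- and 0, 0.234 and 0.208 CPM in M+P+. All F1 M+P- libraries were higher than all M+P+ ones, with the highest value in replicate 3, the library with gaps. The difference of log2 6.09 ± 1.05 did not pass edgeR's test with all libraries (adjusted p = 0.417), and it passed without replicate 3, at log2 5.48 (adjusted p = 0.00194, in a range of 4.73e-07 to 0.972 over 11 alternatives). F2 germlines had 5.99, 4.33 and 7.50 CPM, all above the F1 M+P+ libraries. Against F1 M+P+ they were higher by log2 5.26 ± 0.54 (edgeR adjusted p = 0.00038, n = 3 a group). With F1 M+P+ counts of 0, 2 and 2, *oac-36* reached this test through its F2 libraries. No F2 group from M+P+ mothers was sampled, so history cannot be told apart from generation and selfing in this comparison. Against F1 M+P- the F2 value differed by log2 -0.89 ± 0.55, which did not pass (edgeR adjusted p = 0.942), and by -0.22 without F1 M+P- replicate 3.

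By group mean the order of *oac-36* levels was first-cross hermaphrodite M+P- (29.1 ± 6.73 CPM, SD, n = 2), mutant males (28.2 ± 6.77, n = 3), male M+P- (21.6 ± 3.75, n = 4), L1 M+P- (14.9 ± 5.59, n = 3), F1 M+P- (12.6 ± 9.98, n = 3) and F2 (5.94 ± 1.59, n = 3). Each of these groups overlapped in its libraries with the next in the order. The F2 group did not overlap with the group after it, male M+P+ (0.691 ± 0.773 CPM, n = 4), and all remaining groups had means below that. No test found that the M+P- effect on *oac-36* differed between tissues or crosses: the second minus the first cross gave log2 0.54 ± 1.65 and male minus hermaphrodite germlines -0.64 ± 2.15 (edgeR interaction term, adjusted p = 1 for both). These intervals are wide, and of the 4 such contrasts fitted none called a member, against 0%, 0.0468%, 0.135% and 0% of all genes tested.

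*folt-1* was raised in the hermaphrodite germlines of the first cross and in F2 germlines, over a level that was above 0 in the controls. It had 27.1 and 15.9 CPM in hermaphrodite M+P- and 4.06 and 3.42 CPM in M+P+. The M+P- libraries exceeded both controls and all 3 mutant males. The difference was 5.72-fold (log2 2.52 ± 0.29, edgeR adjusted p = 0.000142, n = 2 a group), and it passed in all 9 alternatives, with adjusted p-values of 1.64e-24 to 0.00388. F1 germlines had 11 and 11.8 CPM in M+P- replicates 1 and 2, 0 in the replicate with the gap, and 2.16, 1.99 and 2.81 CPM in M+P+. The test over all libraries gave log2 1.69 ± 1.52 (edgeR adjusted p = 0.917); without replicate 3 it gave log2 2.27 (adjusted p = 0.00274, in a range of 0.00274 to 0.972 over 11 alternatives). F2 germlines had 13.2, 6.63 and 12.3 CPM, above all F1 M+P+ libraries. That difference was 4.49-fold (log2 2.17 ± 0.31, edgeR adjusted p = 0.00284, n = 3 a group).

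Male germlines had 1.38, 4.10, 8.47 and 3.67 CPM of *folt-1* in M+P- and 0, 0, 1.44 and 0 CPM in M+P+. The groups overlapped by a single library, M+P+ replicate 3, which is the library with high muscle markers. The difference did not pass (log2 3.57 ± 1.49, edgeR adjusted p = 0.981), nor did it without that library (adjusted p = 0.0543, in a range of 0.0543 to 1 over 13 alternatives). L1 larvae had 34.3, 29.1 and 27.6 CPM in M+P- and 17.4, 15.9 and 17.8 CPM in M+P+, and the M+P- larvae had the highest group mean of *folt-1*. The larval groups did not overlap, at log2 0.71 ± 0.21, and the difference did not pass the test (edgeR adjusted p = 0.503). In the same larvae M+P- was wholly below M+P+ in the summed markers of muscle (17890 to 19190 against 21530 to 24230 CPM), intestine (4628 to 5618 against 6218 to 6558 CPM), somatic gonad (1309 to 1524 against 1760 to 1845 CPM) and germ cells (232 to 249 against 267 to 307 CPM), and the part of this in the larval *folt-1* and *oac-36* values was not tested. *folt-1* overlaps the gene C06H2.7 in the annotation, and no source used here says whether strand was used in counting, so its counts are uncertain to that extent; C06H2.7 had log2 0.23 ± 0.16 in hermaphrodite germlines and did not pass (edgeR adjusted p = 0.53). In F2 against F1 M+P+ it was higher by log2 0.58 ± 0.13 and passed (edgeR adjusted p = 0.0311), as *folt-1* did.

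In the same hermaphrodite libraries 8 intestine markers summed to 68.2 and 192.5 CPM in M+P- and 29.0 and 41.2 CPM in M+P+, with 0 or 1 of the 8 at 0 in M+P- and 1 in M+P+. The 8 muscle markers summed to 61.4 and 61.6 CPM in M+P- and 44.3 and 41.7 CPM in M+P+, and the 8 cuticle markers to 13.9 to 15.1 CPM against 8.63 to 10.1 CPM. The 6 oocyte markers were lower in M+P- (9188 to 9309 CPM) than in M+P+ (10790 to 11740 CPM). Their part in the *folt-1* and *oac-36* values was not tested. In the second cross, F1 intestine markers summed to 1361 and 2389 CPM in M+P- replicates 1 and 2, both above the M+P+ libraries (289 to 1173 CPM), and to 26.4 CPM in replicate 3, with 5 of the 8 markers at 0. F1 muscle markers were likewise at 95.7 and 127 CPM in M+P- replicates 1 and 2, against 52.7 to 83.1 CPM in M+P+. F2 intestine markers (586 to 1385 CPM) overlapped those of F1 M+P+. F2 was wholly above F1 M+P+ in markers of muscle (103 to 106.5 CPM), neurons (188.5 to 202.5 against 163 to 180 CPM), somatic gonad (33.8 to 43.8 against 28.5 to 33.6 CPM) and sperm (45.2 to 51.4 against 39.0 to 44.5 CPM). Their part in the second-cross values was not tested either.

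*pes-7*, which had the highest level of the 4 genes in the mutant males, was present in hermaphrodite germlines whether or not the father was mutant. Hermaphrodite M+P- had 3.17 and 2.73 CPM and M+P+ 3.05 and 1.94 CPM, which overlap (log2 0.25 ± 0.37, edgeR adjusted p = 0.842). F1 M+P- had 4.12, 3.49 and 5.78 CPM, F1 M+P+ 3.39, 3.62 and 1.56 CPM and F2 3.78, 3.59 and 2.68 CPM. All 3 of these groups overlapped, and neither F1 (log2 0.48 ± 0.39, adjusted p = 0.917) nor F2 against F1 M+P+ (0.20 ± 0.34, adjusted p = 0.844) passed edgeR's test. Male M+P- had 2.38, 2.54, 2.70 and 2.02 CPM against 0, 0.708, 4.07 and 0.172 CPM in M+P+. The 3 M+P+ male libraries other than replicate 3 lay below all M+P- males, and replicate 3 lay above them; the difference did not pass with it (log2 0.92 ± 1.16, edgeR adjusted p = 1) or without it (log2 2.98, adjusted p = 0.195, in a range of 0.195 to 1 over 13 alternatives).

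L1 larvae had the most *pes-7* RNA, with 123, 104.5 and 161 CPM in M+P- and 158, 172 and 189 CPM in M+P+. These larval groups overlapped, and log2 -0.51 ± 0.21 did not pass (edgeR adjusted p = 0.648).

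*pes-10* was low in all offspring and F2 libraries, at 0 to 3.90 CPM, and edgeR called no difference by history. Hermaphrodite germlines had 0.996 and 1.41 CPM in M+P- and 0.846 and 1.19 CPM in M+P+, which overlap (log2 0.23 ± 0.46, edgeR adjusted p = 0.894). Male germlines had 0.231, 0.781, 0.385 and 0 CPM in M+P- and 0.145, 0.551, 0.340 and 0.0859 CPM in M+P+, too few counts for the test. All 6 L1 libraries had 0 *pes-10* counts, which allows up to 0.156 to 0.217 CPM in each. The second cross gave 1.94, 1.62 and 3.90 CPM in F1 M+P- and 0.470, 0.584 and 0.831 CPM in F1 M+P+, groups that did not overlap. That difference of log2 1.76 ± 0.40 did not pass edgeR's test (adjusted p = 0.539) and passed with DESeq2 (log2 1.77, adjusted p = 0.0276, in a range of 0.0276 to 0.972 over 11 alternatives). F2 germlines had 0.840, 1.84 and 1.39 CPM, all above the highest F1 M+P+ library, with the lowest of them just above it. The F2 difference was not tested because the counts were too low for the filter.

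**Figure D2:**
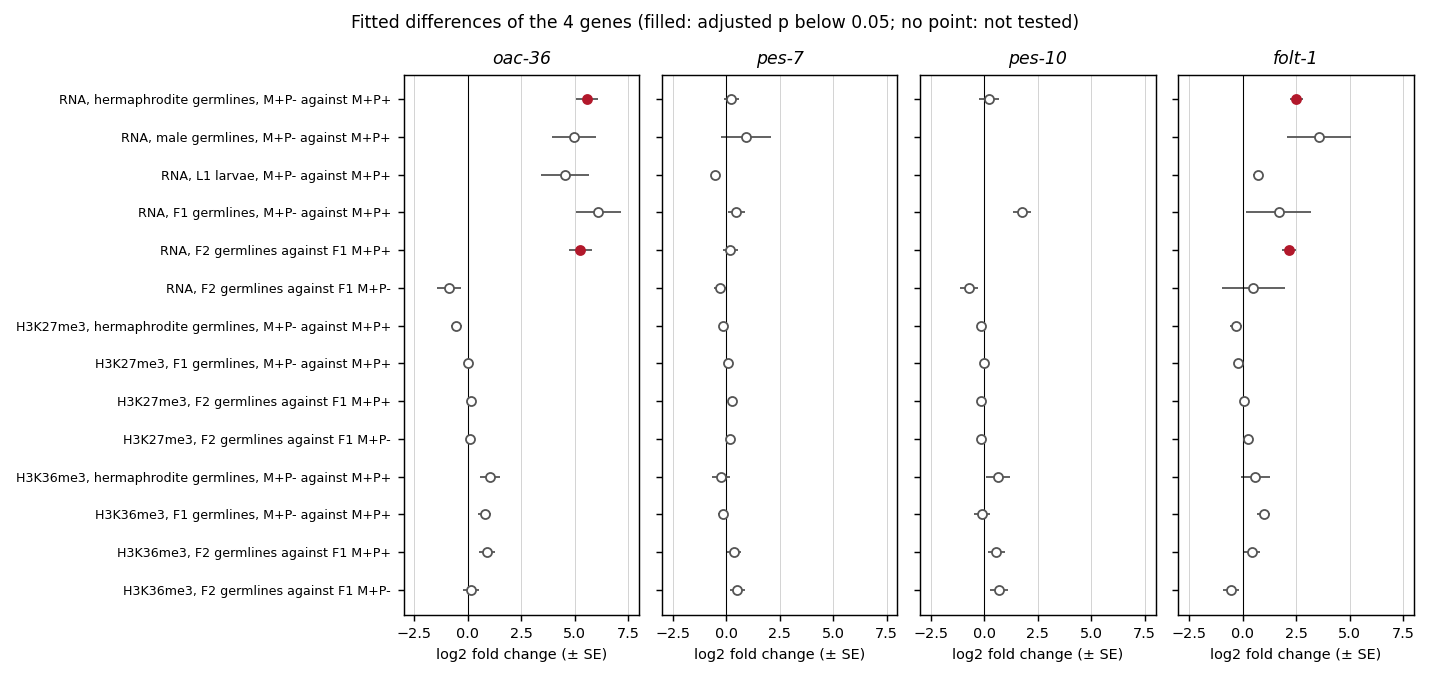
Fitted log2 fold change (x axis, with 1 SE) of each gene in each RNA and CUT&RUN comparison (y axis); filled points have an edgeR adjusted p below 0.05 and a missing point means not tested. The 4 filled points are *oac-36* and *folt-1* RNA in first-cross hermaphrodite germlines and in F2 against F1 M+P+.

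Counted over the members, 2 of 4 were called higher in first-cross hermaphrodite germlines, where 5.11% of the 8409 genes tested were called higher and 9.74% in either direction. In F2 against F1 M+P+, 2 of the 3 tested members were called higher, against 2.54% of 8296 genes higher and 3.21% in either direction. *oac-36* reached both tests through its M+P- or F2 libraries, and the genes were chosen with earlier results of these data known. These counts are thus a description and no test of the members as a set. No member was called in male germlines (0.49% of all genes), L1 larvae (0.00684%), F1 germlines (0%, with 294 of 7983 genes at an unadjusted p under 0.05 in edgeR) or F2 against F1 M+P- (0%, with 54 of 8229 genes at an unadjusted p under 0.05 in edgeR). DESeq2 called 1 member in hermaphrodite germlines, where it called 7.08% of all genes, 1 in males (1.89%), 0 in larvae (0.649%), 2 in F1 germlines (2.25%), 2 in F2 against F1 M+P+ (4.01%) and 0 in F2 against F1 M+P- (0.109%). Members whose M+P- libraries all lay above the M+P+ libraries were *oac-36* and *folt-1* in hermaphrodite germlines (24.3% of all genes tested did so), *oac-36* in males (3.17%), *oac-36* and *folt-1* in larvae (11%) and *oac-36* and *pes-10* in F1 germlines (7.47%). In F2 against F1 M+P+ *oac-36*, *pes-10* and *folt-1* lay above (11.2%). The F1 M+P+ libraries served as control for both F1 M+P- and F2, so those comparisons are not independent. As no F2 group from M+P+ mothers was sampled, every F2 comparison with F1 M+P+ mixes history with generation and selfing, which cannot be told apart.

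Per length, by the group values of RPKM in the authors' deposited table, hermaphrodite M+P- germlines held 15.7 for *folt-1*, 13.6 for *oac-36*, 0.828 for *pes-10* and 0.696 for *pes-7*. In M+P- larvae the authors' deposited table has 32.7 RPKM for *pes-7*, 22.4 for *folt-1*, 6.79 for *oac-36* and 0 for *pes-10*.

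Only *oac-36* could be followed by allele in RNA. It had 274 reads over sequence differences between the parents in all RNA libraries, and the other members had 0. In CUT&RUN, *oac-36* had 1335 such reads and *pes-7* 1551, and *pes-10* and *folt-1* had 0. Shares are given with exact Clopper-Pearson 95% intervals, which cover counting error only, since reads from PCR are not independent molecules.

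The *oac-36* RNA of M+P- worms came mostly from the sperm allele, the one inherited without H3K27me3 per the labels. In the first cross the sperm allele was always of N2 and the oocyte allele of CB4856. A difference between the strains in expression or read mapping thus cannot be told apart from parental origin. Hermaphrodite germlines had 35 of 39 reads from the sperm allele in replicate 1 (89.7%, 75.8 to 97.1%) and 23 of 27 in replicate 2 (85.2%, 66.3 to 95.8%). Male germlines had 17 of 17, 31 of 34, 11 of 15 and 19 of 21, in sum 78 of 87 reads (89.7%, 81.3 to 95.2%). L1 larvae had 5 of 5, 9 of 13 and 62 of 64 reads, in sum 76 of 82 (92.7%, 84.8 to 97.3%). Each M+P- library with more than 1 read held more sperm than oocyte reads. F1 germlines had 1 of 1 and 13 of 15 reads from the sperm allele (14 of 16 in sum, 87.5%, 61.7 to 98.5%), with no allele columns used for replicate 3. The labels give the fathers' strain for the first cross, and in the second cross the sperm allele is the one that the authors' columns name so. F2 germlines had 5 of 6, 6 of 6 and 8 of 8 reads, in sum 19 of 20 (95%, 75.1 to 99.9%).

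The median share over all genes with at least 10 allele reads was 48.2 to 52.2% sperm in the offspring libraries and 50.0 to 53.3% in the F2 libraries. The M+P- shares of *oac-36* lay above those medians in every library. RNA reads of the 20 genes nearest to *oac-36* were also mostly from the sperm allele in several groups: 11 of 12 and 9 of 9 in hermaphrodite M+P-, 72.6 to 94.4% in M+P- larvae, and 54 of 71 and 27 of 27 in M+P+ larvae replicates 2 and 3, with 0 of 3 in replicate 1. In males they were 55.8 to 66.1% sperm in M+P- and 49.7 to 68.9% in M+P+, so the skew at *oac-36* is not shown to be particular to that gene. The M+P+ worms gave hardly any reads to compare with: 1 of 2 in hermaphrodite germlines, 1 of 1 in males, 0 reads in larvae and 0 in F1. The test of allele by father's history accordingly gave no call for *oac-36* in hermaphrodite germlines (log2 2.81 ± 2.45, edgeR adjusted p = 0.928) or males (1.5 ± 3.9, adjusted p = 1), where 0.406% and 0.256% of all genes were called; in larvae 0.0241% and in F1 0.172% of genes were called, and with 0 M+P+ reads *oac-36* allows no such estimate there. A few reads also came from the oocyte allele, 8 of 66 in hermaphrodite germlines, 9 of 87 in males and 6 of 82 in larvae. F2 worms were selfed and could hold either parental allele in 0, 1 or 2 copies. Their labelled genotype includes *mes-3* and *fem-2* but not *oac-36*, and 1601 protein-coding genes lie between *mes-3* and *oac-36* on chromosome I. Over the 20 genes nearest to *oac-36*, the F2 H3K27me3 libraries held 55.1% and 49.6% sperm reads, near their library medians of 47.1 to 52.1%.

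**Figure D3:**
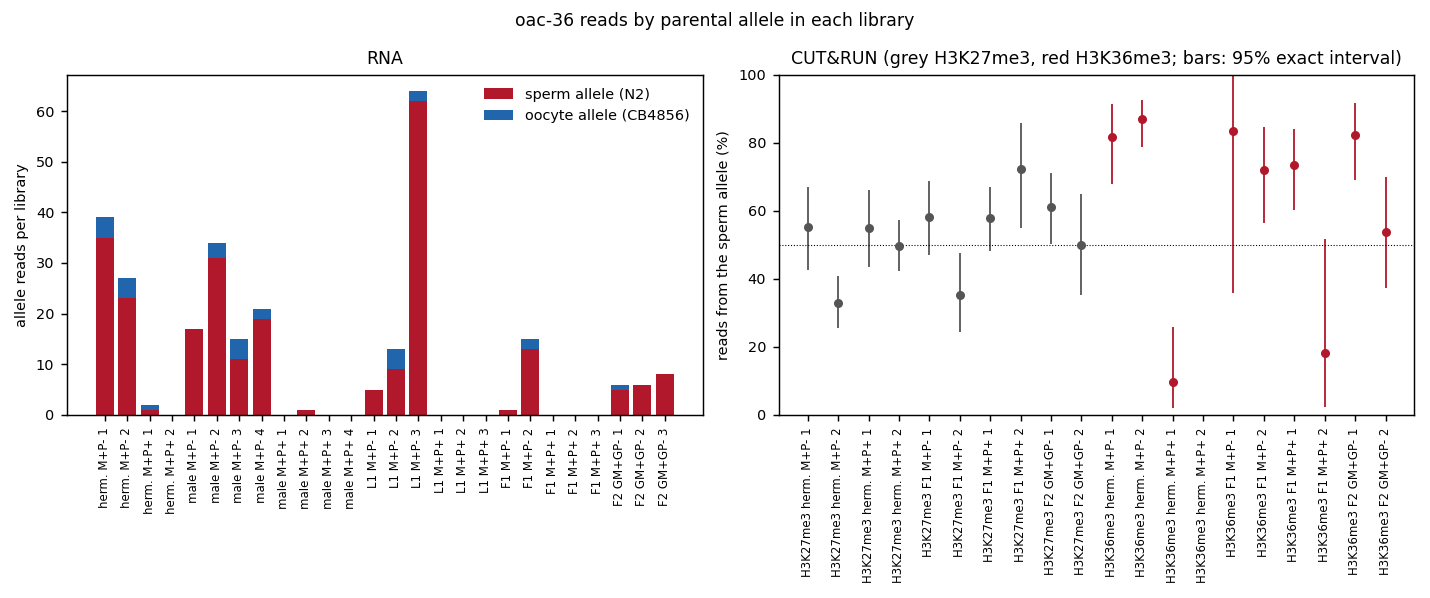
Left, number of *oac-36* RNA reads (y axis) assigned to the sperm and the oocyte allele in each library (x axis); right, percentage of *oac-36* CUT&RUN reads from the sperm allele with 95% exact intervals, with a dotted line at 50%. M+P- hermaphrodite germlines have 85.2 to 89.7% sperm RNA reads and 81.6 to 86.8% sperm H3K36me3 reads.

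H3K36me3 over *oac-36* ran in the same direction as its RNA, without passing the test over all libraries. First-cross hermaphrodite germlines had 33.3 and 40.1 CPM in M+P- and 19.2 and 12.1 CPM in M+P+ (log2 1.05 ± 0.47, edgeR adjusted p = 1). Without M+P+ replicate 1 the log2 value was 1.1 and passed (edgeR adjusted p = 0.0372, in a range of 0.0372 to 1 over 9 alternatives), in a fit that called 45.2% of all genes. F1 germlines had 27.8 and 25.3 CPM in M+P- and 14.3 and 15.6 CPM in M+P+ (log2 0.78 ± 0.30, edgeR adjusted p = 0.541), and F2 germlines had 35.7 and 30.1 CPM (log2 0.91 ± 0.37 against F1 M+P+, adjusted p = 0.331). In each of these the M+P- or F2 libraries lay above all M+P+ libraries, as for 18.4%, 23.1% and 43.8% of all genes tested. In F2 against F1 M+P+ the median over all genes was log2 0.24. Ranked among all genes by the authors' score per library, F2 stood at percentiles 62.8 and 35.0 and F1 M+P+ at 38.7 and 29.8, which overlap. *him-8* males had 5.88 and 17.0 CPM, the former from 10 counts in the shallow library. All genes together showed how little these comparisons could call: 0% in hermaphrodite germlines (132 of 24469 genes at an unadjusted p under 0.05 in edgeR), 0.121% in F1, 0% in F2 against F1 M+P+ (3688 of 24592 genes at an unadjusted p under 0.05 in edgeR) and 0.312% in F2 against F1 M+P-, and 0 members in each.

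By allele, the H3K36me3 reads over *oac-36* in M+P- hermaphrodite germlines were 40 of 49 (81.6%) and 92 of 106 (86.8%) from the sperm chromosome, in sum 85.2% (78.6 to 90.4%). In M+P+ replicate 1 they were 3 of 31 (9.68%, 2.04 to 25.8%), and M+P+ replicate 2 had 0 allele reads there although it had 507 counts over the gene. The medians over all genes were 53.9 to 61.5% sperm in the H3K36me3 libraries of offspring. The interaction of allele and history was log2 5.30 ± 2.14 and did not pass (edgeR adjusted p = 1, with 0.00839% of all genes called). Without M+P+ replicate 2, which had no allele reads at the gene, it was log2 5.61 and passed (edgeR adjusted p = 0.0381, in a range of 0.0381 to 1 over 7 alternatives), in a fit that called 0.124% of all genes. In the second cross F1 M+P- had 5 of 6 and 31 of 43 sperm reads, F1 M+P+ 44 of 60 and 2 of 11, and F2 42 of 51 and 21 of 39. The replicates of F1 M+P+ disagreed, with 73.3% and 18.2% sperm reads, and the second-cross interaction was 1.71 ± 2.03 (edgeR adjusted p = 1, with 0% of all genes called).

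H3K27me3 over *oac-36* was measured at 39.1 and 53.2 CPM in M+P- and 54.5 and 74.8 CPM in M+P+ hermaphrodite germlines. The M+P- libraries lay below both M+P+ libraries, as did 9.41% of all genes tested, and log2 -0.54 ± 0.26 did not pass (edgeR adjusted p = 1). With the replicate number as a block, log2 -0.54 passed (edgeR adjusted p = 2.05e-09), in a fit that called 10.3% of all genes. Whether replicate numbers pair these libraries was not decided. F1 germlines had 50.2 and 41.2 CPM in M+P- and 51.4 and 40.3 CPM in M+P+, a difference of log2 0.01 ± 0.18, and F2 germlines had 46.9 and 54.1 CPM. *him-8* males, with hardly any *oac-36* RNA, had 55.4 and 47.5 CPM, within the range of the offspring. The H3K27me3 counts of F1 and F2 M+P- descendants thus overlapped those of F1 M+P+ at this gene while the RNA did not.

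The H3K27me3 reads over *oac-36* came from both alleles: 55.1% and 32.9% sperm in hermaphrodite M+P-, 55.0% and 49.7% in M+P+, 58.1% and 35.2% in F1 M+P-, 57.9% and 72.2% in F1 M+P+, and 61.1% and 50.0% in F2. Replicates of a group differed by as much as groups did, and neither interaction passed (log2 -0.59 ± 0.41 in the first cross, edgeR adjusted p = 0.593; -1.02 ± 0.73 in the second, adjusted p = 1), with 1.47% and 0% of all genes called.

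Set against each other as log2 of the H3K27me3 over the H3K36me3 CPM of a group, *oac-36* stood at 2.17 in *him-8* males, 2.05 in hermaphrodite M+P+ and 1.62 in F1 M+P+, and at 0.33 in hermaphrodite M+P-, 0.78 in F1 M+P- and 0.62 in F2. The median over all genes was also lower in the latter groups, 1.44, 1.12 and 0.91 against 1.74, 1.85 and 1.53. Ranked among all genes, *oac-36* moved from the percentiles 63.1, 57.4 and 53.9 in the former groups to 28.6, 39.9 and 39.96 in the latter. The hermaphrodite M+P+ replicates stood at log2 1.51 and 2.63 and the M+P- replicates at 0.23 and 0.41.

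*folt-1* H3K36me3 was 34.9 and 24.0 CPM in F1 M+P- and 13.1 and 15.7 CPM in F1 M+P+ (log2 0.98 ± 0.31, edgeR adjusted p = 0.391), and 22.4 and 23.4 CPM in F2. In the first cross it was 10.95 and 24.3 CPM in M+P- and 15.4 and 6.27 CPM in M+P+, which overlap. The F1 groups did not overlap for *folt-1* and *oac-36*, as for 23.1% of all genes tested. H3K27me3 over *folt-1* was 29.1 and 37.1 CPM in hermaphrodite M+P- and 32.3 and 46.5 CPM in M+P+ (log2 -0.31 ± 0.27), and 27.4 and 28.1 CPM in F1 M+P- against 32.9 and 31.9 CPM in F1 M+P+ (log2 -0.21 ± 0.18), with edgeR adjusted p = 1 for both. As log2 of H3K27me3 over H3K36me3, *folt-1* was at 1.07 and 2.89 in the hermaphrodite M+P+ replicates and at 1.41 and 0.61 in M+P-, which overlap. In F1 it was at 1.33 and 1.02 in M+P+ and at -0.35 and 0.23 in M+P-, which do not, and by group at 0.56 in F2 and 1.2 in *him-8* males.

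For *pes-7*, whose RNA passed no test by history in germlines, H3K27me3 also passed no test over all libraries. The lowest adjusted p was for F2 against F1 M+P+ (log2 0.28 ± 0.10, edgeR adjusted p = 0.0974). H3K27me3 over *pes-7* lay in a limited range. It ranged from 131.5 to 192.3 CPM over the 12 libraries, and from 38.9 to 77.1% sperm reads in the 10 libraries with alleles. Its H3K36me3 ranged from 28.2 to 99.2 CPM, with no difference past the test (log2 -0.23 ± 0.43 in hermaphrodite germlines and -0.13 ± 0.23 in F1, edgeR adjusted p = 1 and 0.888). In hermaphrodite M+P+ replicate 2, 0 of its 66 H3K36me3 allele reads came from the sperm chromosome (up to 5.44%), against 13 of 32 in replicate 1, in the library that also lacked allele reads at *oac-36*. *pes-10* H3K27me3 ranged from 29.2 to 41.3 CPM and its H3K36me3 from 6.86 to 24.2 CPM, the top being F2 replicate 2. Over all 4 members and both marks, edgeR called no comparison of total counts when fitted to all libraries without a block, including those of H3K27me3 in which 0% (hermaphrodite), 0% (F1), 10.6% (F2 against F1 M+P+) and 6.16% (F2 against F1 M+P-) of genes were called. At an unadjusted p under 0.05, edgeR had 299 of 29121 genes in hermaphrodite and 615 of 29099 in F1 germlines for H3K27me3.

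Non-overlap between the pairs of CUT&RUN libraries was common among all genes and is given for completeness. In H3K36me3, *oac-36* and *pes-10* lay above M+P+ in hermaphrodite M+P- germlines (18.4% of all genes tested), all 4 members in F2 above F1 M+P+ (43.8%), and *oac-36*, *pes-7* and *pes-10* in F2 above F1 M+P- (30.3%), with *folt-1* below (12.1%). In H3K27me3, *pes-10* joined *oac-36* below M+P+ in hermaphrodite M+P- germlines, and *folt-1* lay below in F1 M+P- (15.5%). F2 H3K27me3 lay above F1 M+P+ at *pes-7* (27.6%) and below it at *pes-10* (27.1%), and against F1 M+P- it lay above at *pes-7* and *folt-1* (23.8%) and below at *pes-10* (23.9%).

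**Figure D4:**
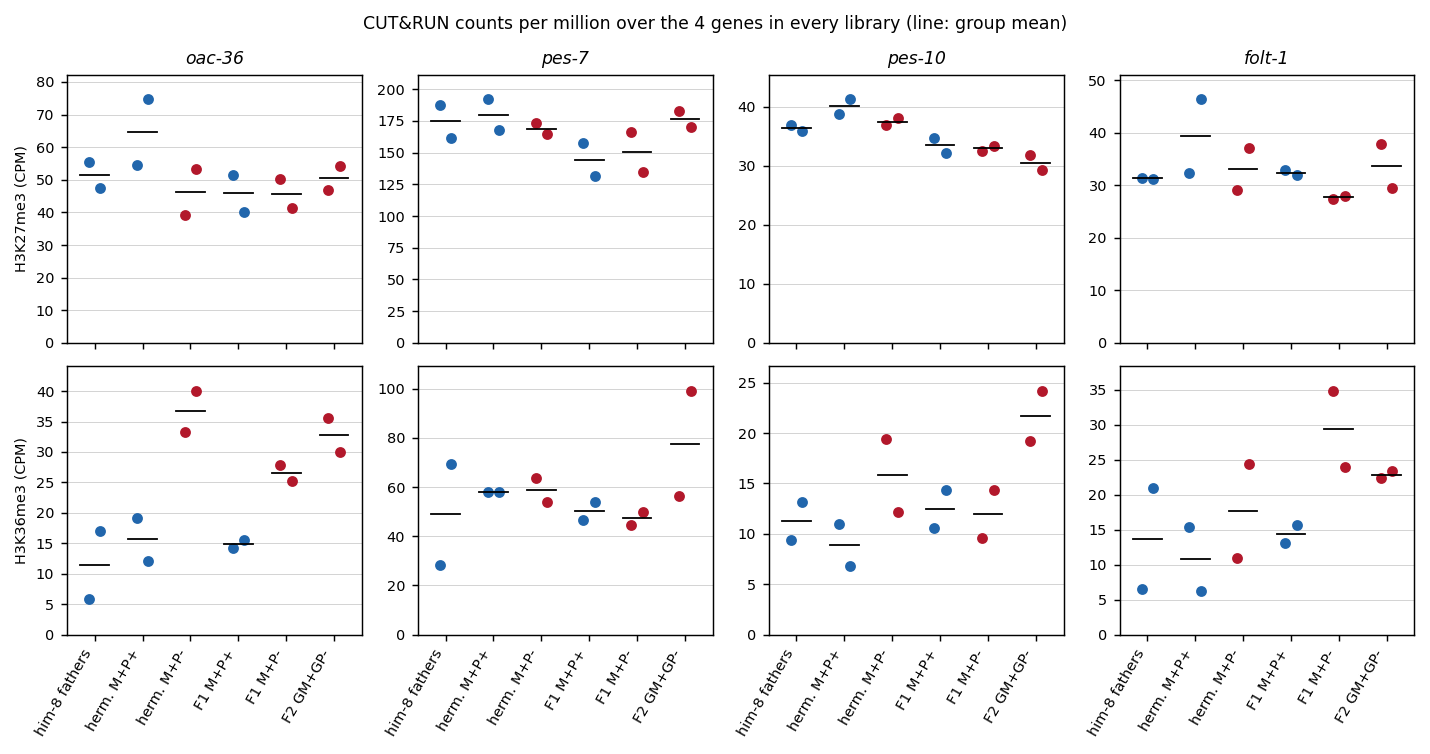
CUT&RUN level in CPM over each gene (y axis) in every library, H3K27me3 above and H3K36me3 below, with a line at the group mean; red marks descendants of mutant fathers. For *oac-36*, H3K36me3 is at 25.3 to 40.1 CPM in the red groups and at 5.88 to 19.2 CPM in the blue groups, while H3K27me3 overlaps between F1 groups.

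Most genes next to the members had too few counts for a test. *oac-35*, the family member next to *oac-36*, had a mean of 0.0867 CPM in hermaphrodite M+P-, 0 in M+P+ and 0.0398 CPM in mutant males, and *glct-4*, the second gene on the other side, had 0.565 CPM and 0 CPM in those groups. None of the 2 genes on either side of *oac-36* had counts enough for the test. Y46G5A.29, the second gene after *pes-10*, had means of 7.03 CPM in mutant males and 0.297 CPM in *him-8* males. It was lower in M+P- hermaphrodite germlines (log2 -0.93 ± 0.21, edgeR adjusted p = 0.0127) and higher in F2 than in F1 M+P+ (log2 0.78 ± 0.18, adjusted p = 0.0456).

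The RNA profiles of the 4 members also differed among themselves. Across 32 RNA libraries, leaving out the one with gaps, Pearson's r of log2(CPM + 0.5) was 0.75 between *pes-7* and *folt-1*, 0.54 between *oac-36* and *folt-1*, and 0.30 between *oac-36* and *pes-7*. The remaining pairs with *pes-10* had 0.45 (*oac-36*), 0.16 (*folt-1*) and 0.02 (*pes-7*). These are descriptions over libraries that share crosses and tissues. Of 14699 genes with a mean of at least 0.5 CPM, the ones most like *oac-36* were F11A5.18 (r = 0.91), *nhr-81* (0.90), a nuclear hormone receptor gene on chromosome I with 5 protein-coding genes between it and *oac-36*, and the F-box gene *fbxa-43* (0.88). Each of these was higher in hermaphrodite M+P- germlines: F11A5.18 by log2 2.43 ± 0.41 (edgeR adjusted p = 0.00191), *nhr-81* by 4.69 ± 0.63 (0.000455) and *fbxa-43* by 4.54 ± 0.49 (9.32e-05). The similarity was measured on the same libraries, so these tests are not separate evidence. Allele reads existed for *fbxa-43* alone of these 3, with 42 of 43 from the sperm chromosome in hermaphrodite M+P-, 46 of 46 in male M+P- and 14 of 17 in F1 M+P-. In M+P+ they were 1 of 1 in hermaphrodite germlines, 7 of 13 in males and 6 of 6 in F1.

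The genes most like *folt-1* were *npr-37*, Y73B6BL.27 and *kin-32* (r = 0.93 each). *npr-37*, a neuropeptide receptor gene by its name, was higher in hermaphrodite M+P- (log2 2.48 ± 0.33, edgeR adjusted p = 0.000453) and in F2 against F1 M+P+ (1.64 ± 0.21, adjusted p = 0.00158). Y73B6BL.27 also passed in both (edgeR adjusted p = 0.000976 and 0.00123), and *kin-32* passed in F2 only (0.0621 and 0.0101). The similarity was measured on these same libraries, so these tests are not separate evidence. The genes most like *pes-7* were *catp-1* (0.98), F43G6.4 and *sup-26* (0.97 each), and those most like *pes-10* were *lido-11* (0.87), F32B4.8 (0.85) and *citk-1* (0.84). *catp-1*, at 59.4 CPM in M+P+ larvae and 2.25 CPM in hermaphrodite M+P-, shared the larval maximum of *pes-7*. It did not pass the test by history in hermaphrodite germlines (log2 -0.03 ± 0.37, edgeR adjusted p = 0.984).

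The families and pathways of the members gave few calls. Of 59 other *oac* genes only 2 had counts enough to be tested in hermaphrodite germlines, and 1 rose, *oac-52* (log2 5.57 ± 0.78, edgeR adjusted p = 0.000643, mean 2.36 CPM in M+P- and 0.0423 CPM in M+P+). *oac-52* was also higher in F2 than in F1 M+P+ (2.76 ± 0.58, edgeR adjusted p = 0.0258), where again 2 were tested. In male germlines 12 and in larvae 34 *oac* genes were tested, and none passed in edgeR. With counts this low in M+P+, *oac-52* reached the test through its M+P- libraries. Of all genes tested, 5.11% were called higher in hermaphrodite germlines and 2.54% in F2 against F1 M+P+. The median change of the 12 *oac* genes tested in males was log2 0.05, with -0.03 over all genes. Of 10 other genes of folate uptake and folate metabolism, 9 were tested in hermaphrodite germlines and 2 rose, where 5.11% of all genes were called higher. These were the folate carrier gene *folt-2* (log2 1.89 ± 0.54, edgeR adjusted p = 0.0435) and *atic-1*, a gene of purine synthesis that uses a folate cofactor (3.02 ± 0.61, adjusted p = 0.0069). With a mean of 0.207 CPM in M+P+, *atic-1* reached the test through its M+P- libraries. The remaining 7 included *dhfr-1*, dihydrofolate reductase, at 70.5 CPM in M+P- and 69.7 CPM in M+P+, and the median of the list was log2 0.02. No folate gene passed in the other comparisons, with 9 or 10 tested in each. Of 7 other *pes* genes 2 to 5 were tested per comparison, and of 14 early zygotic genes found in the table, 1 was tested in hermaphrodite germlines and 4 in larvae; none passed.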

How the data were processed

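The 4 genes and all gene lists were chosen with earlier results of these data known. The authors deposited raw counts per gene for each library (paired-end and single-end for RNA), raw counts of reads on the sperm and the oocyte allele, and a score per gene for each CUT&RUN library, a z-score per the file headers. The build was ce10, and DESeq, DESeq2 1.22.2, HTSeq, Bowtie2 2.3.5.1 and TopHat2 2.1.1 are named, per the submitters' processing notes; their roles, the CUT&RUN counting region, the strand setting and the z-score formula are not given in the sources used here. The authors' deposited table of log2 fold changes, p-values adjusted by the authors and RPKM group values was quoted as such. A total of 40 further columns of allele scores were not used.

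CPM is a gene's count per 1000000 counts of its library. The SE of an edgeR log2 value is its absolute size divided by the square root of the F statistic, which is an approximation. Differences were fitted on the paired-end and CUT&RUN counts with edgeR 4.0.16 (R 4.3.3; TMM, filterByExpr, quasi-likelihood F-test, Benjamini-Hochberg over all genes, threshold 0.05) within the groups compared; p-values measure the spread between libraries, called biological replicates per the labels' protocols. The interaction of allele and history had the library as a block and a minimum mean of 5 allele reads; alternatives used 2 and 10. Other alternatives were DESeq2 1.42.0, its size factors, no filter, single-end counts, limma 3.58.1 on the z-scores, the replicate number as a block, and leaving out each library. Scripts were tested on simulated data. Replicate numbers paired the libraries by the rule used (every correlation of deviations over 0.1, 3 pairs) only in F2 against F1 M+P+ RNA (r of 0.15 to 0.42), where the block also called 2 members. Groups of 2 libraries could not meet that rule, among them hermaphrodite H3K27me3 (r = 0.72) and F1 H3K36me3 (r = 0.16). Genes were named by a fixed rule: the 4 members, the 3 genes most correlated with each, listed-gene calls and 2 neighbours on each side; the naming of *dhfr-1* followed its values. None of 47 replicate pairs held identical values. The names of 44080 of 45461 genes matched RefSeq.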

Additional observations from a re-analysis of the deposited data

Results flagged for a closer look

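The *folt-1* RNA level of 1.44 CPM in male M+P+ replicate 3 stood far from the other 3 libraries of its group, which were all at 0. The same library had the highest muscle marker sum of its group, and the part of that in the *folt-1* value was not tested. The check covered 8 groups of 4 libraries, and chance marks about 1 in 20 such groups where values are not tied. With the other 3 libraries at 0, any count above 0 gets the flag, so that rate does not apply here.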

How the results depend on the processing

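With 272 recomputed counts of members called and 887 recomputed member values, 256 counts stayed within 1.5 times the main count and 825 values kept their direction and side of the threshold; 21 values newly passed, 1 no longer passed and 40 changed sign, and where no cause is named the cause was not tested. By DESeq2 the count of members called was 1 in first-cross hermaphrodite RNA (*folt-1*; 2 by edgeR), 1 in male RNA (*oac-36*; 0 by edgeR) and 2 in F1 RNA (*oac-36*, *pes-10*; 0 by edgeR). Without a filter on low counts it was 1 in L1 larvae (*oac-36*; 0.567% of all genes), and single-end counts, which lack F1 M+P- replicate 3, gave 2 in F1 (*oac-36*, *folt-1*; 3.28%) and turned *folt-1* in F2 against F1 M+P- to log2 -0.16. The replicate block called 2 in hermaphrodite H3K27me3, where it called 10.3% of all genes (*oac-36* -0.54, adjusted p = 2.05e-09, and *folt-1* -0.30, adjusted p = 0.0173, by edgeR). It called 2 in F1 H3K36me3, with 4.73% (*oac-36* 0.78, adjusted p = 0.0475, and *folt-1* 0.96, adjusted p = 0.00703, by edgeR), and changed no other call. Groups of 2 libraries could not meet the pairing rule, so whether the numbers pair these libraries was not decided (r = 0.72 and 0.16). Adjusted p-values of *oac-36* over the alternatives ran from 2.05e-09 to 1 and from 0.0475 to 1, and of *folt-1* from 0.0173 to 1 and from 0.00703 to 1. Leaving out 1 library at a time (with the share of all genes called in that fit), the count ranged from 0 to 1 in L1 RNA (1 without M+P+ replicate 1; 0.0192%), from 0 to 2 in F1 RNA (2 without M+P- replicate 3; 3.16%), from 0 to 1 in H3K27me3 of F2 against F1 M+P+ (*pes-7* without F1 M+P+ replicate 1; 10.4%) and against F1 M+P- (*pes-7* without F1 M+P- replicate 1; 14.1%), from 0 to 1 in H3K36me3 of hermaphrodites (*oac-36* without M+P+ replicate 1; 45.2%) and of F2 against F1 M+P- (*pes-7* without F2 replicate 1; 14.8%), from 0 to 2 for larvae minus males (*pes-7* and *folt-1*, without male M+P+ replicate 3; 2.48%) and from 0 to 1 for H3K36me3 alleles of hermaphrodites (*pes-7* without M+P+ replicate 1, 9.86%, and *oac-36* without M+P+ replicate 2, 0.124%). Where an arm was left with 1 library, that library was assumed to vary like the others. In RNA, *pes-7* and *pes-10* in hermaphrodites gave log2 values from -0.037 to 0.56 and from -0.048 to 0.52, *pes-7* in F2 against F1 M+P+ from -0.081 to 0.39 and *folt-1* in F2 against F1 M+P- from -0.087 to 0.92. In H3K27me3, *folt-1* in hermaphrodites ranged from -0.57 to 0.027, F1 *oac-36* from -0.16 to 0.19, F1 *pes-7* from -0.10 to 0.22 and F1 *pes-10* from -0.062 to 0.039, and against F1 M+P+ the F2 values from -0.041 to 0.32 (*oac-36*) and from -0.14 to 0.21 (*folt-1*). In H3K36me3, hermaphrodite *pes-7* ranged from -0.49 to 0.064 and *folt-1* from -0.15 to 1.04, F1 *pes-10* from -0.43 to 0.16 and *oac-36* in F2 against F1 M+P- from -0.060 to 0.35. Differences of the M+P- effect ranged, for *oac-36*, from -6.63 to 0.55 (male minus hermaphrodite), from -7.17 to 5.04 (larvae minus hermaphrodite), from -1.12 to 5.50 (larvae minus male) and from -5.06 to 1.53 (second minus first cross); for *pes-10* from -0.66 to 0.57, from -0.49 to 0.077 and from -0.85 to 0.38 in the first 3 of these, and for *pes-7* from -0.10 to 0.46 in the last. Allele interactions ranged from -1.12 to 0.20 (*oac-36*, H3K27me3, hermaphrodites), from -1.16 to 1.24 (*pes-7*, H3K27me3, F1) and from -0.67 to 5.2 (*pes-7*, H3K36me3, F1). The M+P+ libraries, with *oac-36* RNA at 0 to 1.81 CPM, held 0 to 2 *oac-36* RNA allele reads each, which limits the allele comparison of that gene.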
